A study of Mus musculus with 6 samples.

Results

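The genes described here were the Zfp genes expressed in CD4+CD8+ double-positive (DP) thymocytes, chosen by name (Zfp and a number, without Zfp36, Zfp36l1, Zfp36l2 and Zfp36l3, whose products bind RNA) and selected on a mean of at least 50 counts over the 6 libraries. They numbered 295 of 22322 genes in the deposited table, and 396 Zfp genes of any level were listed, of which 31 had no count. The 3 libraries labelled control came from Paxbp1 fl/fl littermates and the 3 labelled Paxbp1 cKO from Paxbp1 fl/fl mice with Cre under the Lck promoter, which acts in the T cell lineage from early thymocyte stages. The floxed allele was carried by both groups, all mice were 4 to 7 weeks old and untreated, and the question was what deletion of Paxbp1 alters in sorted DP cells. Whether a library was 1 animal or a pool was not given, so that p-values measure the spread between these libraries.

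Zfp genes encode proteins with C2H2 zinc fingers, small folds held by a zinc ion that read DNA or RNA, usually in tandem. Many also carry a KRAB box at the amino terminus, which recruits the co-repressor TRIM28 and, through it, the histone methyltransferase SETDB1 and HP1 proteins, and this system is best known for silencing transposable elements. KRAB genes multiplied by local duplication and lie in clusters of similar genes. Zfp genes without a KRAB box are a mixed group that includes transcription factors, RNA-binding proteins and ribosome factors.

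A KRAB box was found in a predicted protein of 181 members, and 114 had none. The KRAB members had a median of 12 fingers and the others a median of 7. As a level per length, the 295 genes were modest: the mean FPKM over the 6 libraries had a median of 7.10 and ran from 0.480 to 163, against a median of 12.9 for all 11488 tested genes. The median was 6.46 FPKM in KRAB members and 10.2 FPKM in the others. The highest means were those of Zfp207 (163 FPKM), a spindle assembly factor, Zfp422 (113 FPKM), Zfp706 (109 FPKM), Zfp410 (97.6 FPKM), known as an activator of Chd4, and Zfp622 (89.8 FPKM), which acts in maturation of the large ribosomal subunit. None of these 5 carried a KRAB box. Just inside the threshold were Zfp341 (mean 51.33 counts), Zfp827 (51.83) and Zfp420 (54.50), and just outside it were Zfp112 (47.50), Zfp968 (47.33) and Zfp974 (45.67). All 295 passed the filter on low counts. For 6 members, Zfp248, Zfp341, Zfp455, Zfp661, Zfp760 and Zfp947, only the mean of the libraries labelled cKO reached 50, and for 3, Zfp2, Zfp94 and Zfp827, only the control mean did.

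Libraries held 18963775 to 26252248 counts. Whole-gene counts of Paxbp1 were 774, 318 and 400 in the controls and 851, 905 and 1075 in the libraries labelled cKO (log2 fold change 0.92 ± 0.325 SE, edgeR adjusted p = 0.0977). The paper reports reduced Paxbp1 by qPCR in DN cells, complete deletion by the ISP stage, and efficient loss of the protein in DN and DP cells. The counts here cover the whole gene, not the floxed exon alone, and reads per exon were not at hand, so that they did not check the labels. Every direction below is therefore that of the libraries labelled cKO. The 12 DP markers summed to 10800 to 12800 CPM (counts scaled to library size) in controls and 8160 to 9770 CPM in cKO, and 3 of them fell (Cd1d1, Rag1 and Cd8b1). Of 14 tested macrophage markers out of 18 listed, 6 rose and 0 fell, with sums of 46.8 to 86.4 CPM against 113 to 163 CPM, while Adgre1 was at 0 in every control and Mertk at 0 throughout. Markers of other cells were B cell (1 of 3 tested lower), NK and innate T (1 of 2 higher, sums of 33.9 to 73.8 against 138 to 162 CPM), DN and ISP (3 of 8 higher), late DP and mature SP (2 of 9 higher, 1270 to 1410 against 1570 to 3430 CPM), and dendritic, erythroid, neutrophil and thymic epithelial genes, of which none of 13 tested passed in edgeR, in DESeq2, in limma-voom or at an unadjusted p of 0.05. The part of these cells in the results below was not tested, and fewer cells of a type cannot be told apart from less RNA per cell.

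One control stood apart for the Zfp genes. Each gene's log2(CPM + 0.1) was set against its own mean over the 6 libraries, and the median over the 181 KRAB members was 0.17 in control 1, -0.23 in control 2 and -0.29 in control 3, against 0.13, 0.12 and 0.16 in cKO 1, 2 and 3. Control 1 was thus above all 3 cKO libraries, and the other 2 controls were below them. The 114 members without a KRAB box gave 0.19, -0.05 and -0.05 in controls and 0.01, 0.00 and -0.08 in cKO, while the median over all tested genes was between 0.01 and 0.02 in every library. Control 1 was the highest of the 3 controls for 122 KRAB members (67.4%) and 70 others (61.4%), against 38.6% of all tested genes. Members took 1.39%, 1.03% and 1.02% of the counts of controls 1, 2 and 3 and 1.22%, 1.22% and 1.24% of those of cKO 1, 2 and 3. Values without control 1 stand beside those results below where its loss changed a call of a named member, or the count of a class or cluster.

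**Figure D1:**
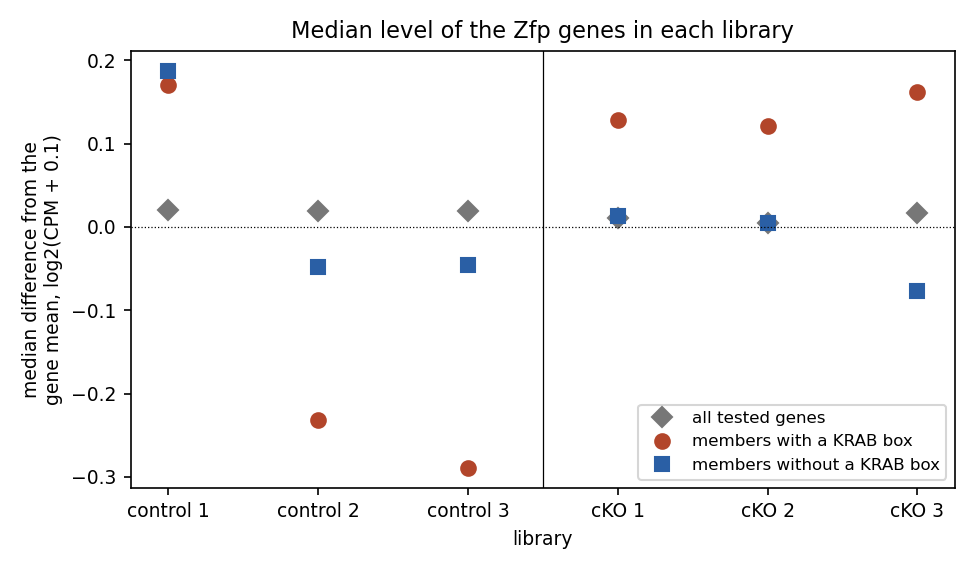
Median over genes of the difference between a gene's log2(CPM + 0.1) in 1 library (x axis) and its mean over the 6 libraries, for 181 members with a KRAB box, 114 without and all 11488 tested genes. The KRAB median of control 1 (0.17) was above those of the 3 cKO libraries (0.12 to 0.16), while controls 2 and 3 were at -0.23 and -0.29.

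With an adjusted p below 0.05 in edgeR's quasi-likelihood test over all 11488 genes, 16 members rose in cKO (5.42%, against 4.47% of all tested genes) and 3 fell (1.02%, against 5.89%). Past an absolute log2 fold change of 1 as well, 6 members rose and 1 fell, beside 1.53% and 1.23% of all tested genes. The median log2 fold change over the 295 was 0.10 and over all tested genes -0.00. The cKO libraries lay wholly above the controls for 36 members (12.2%, against 15.7% of all tested genes) and wholly below for 28 (9.49%, against 17.3%). The share of members that rose was thus near the background, and the share that fell was below it. Of all tested genes with a mean of 50 counts or more, 4.81% rose and 6.67% fell. The median standard error of the log2 fold change was larger in members, 0.238 against 0.19 over all tested genes, and its part in these shares was not tested. Without control 1, 50 members rose and 7 fell, against 8.42% and 8.68% of all genes tested there, and the median was 0.22. Without cKO 3, only Zfp992 remained and 0 fell, with 0.359% and 0.666% of all genes called. DESeq2 called 25 members higher and 7 lower, against 7.67% and 7.68% of the genes it tested, and limma-voom 20 and 6, against 5.22% and 6.24%.

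The members divided by their KRAB box, a split made after values had been seen. Of the 181 with a KRAB box, 14 rose (7.73%) and 1 fell (0.552%), with a median log2 fold change of 0.24 (interquartile range -0.04 to 0.48) and a positive value in 127 (70.2%, against 49.8% of all tested genes). Of the 114 without, 2 rose and 2 fell (1.75% each), the median was -0.07 (-0.47 to 0.12) and 48 were positive (42.1%). The cKO libraries lay wholly above the controls for 29 KRAB members (16.0%) and wholly below for 4 (2.21%), and the counts were 7 (6.14%) and 24 (21.1%) for the others. Of the KRAB members, Zfp248, Zfp455, Zfp661, Zfp760 and Zfp947 met the count rule only through their cKO libraries, and Zfp94 only through its controls. The place of these genes in the counts here and in the classes below was thus not independent of their direction. The difference between the classes was not tested. Without control 1 the median was 0.39 for KRAB members and 0.01 for the others, so that the sign of the latter turned. There 40 KRAB members rose, beside 8.42% of all tested genes. The KRAB median was 0.20 without control 2 and 0.13 without control 3, with 118 and 116 of 181 positive. That of the others was -0.14 and -0.10.

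**Figure D2:**
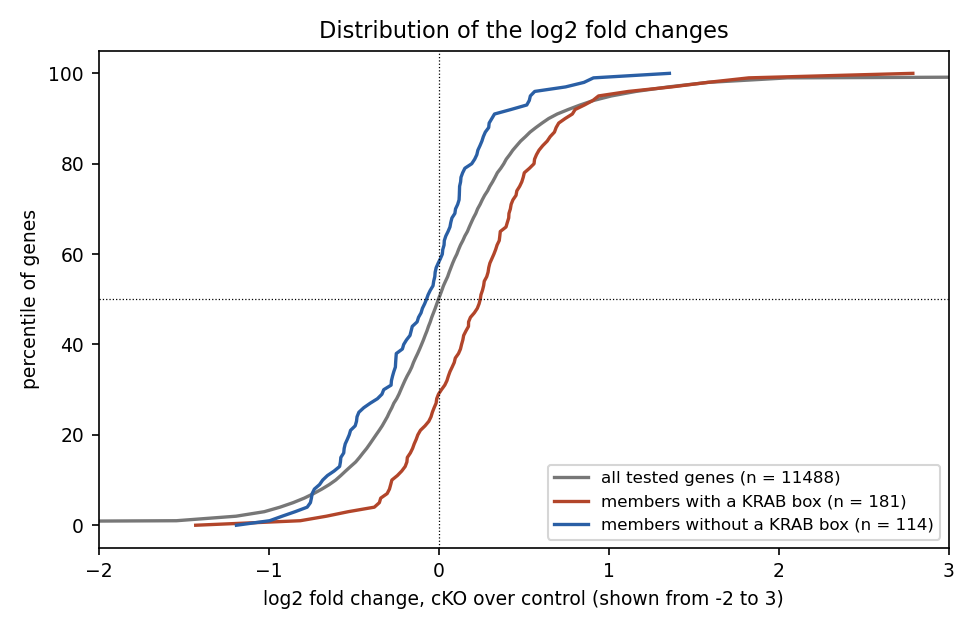
Percentile of genes (y axis) against the log2 fold change, cKO over control (x axis), for KRAB members, members without a KRAB box and all tested genes. The KRAB curve crosses the 50th percentile at 0.24, the curve without a KRAB box at -0.07 and that of all tested genes at -0.00.

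The class also differed in base composition. The median GC content of the transcript was 41.2% in KRAB members, 50.6% in the others and 50.3% in all tested genes, and GC content moved with the fold change across genes, with a Spearman rho of -0.185 over 11476 tested genes, -0.259 over the KRAB members and -0.246 over the others. These genes share the 6 libraries and are not independent. Under 45% GC, 14 of 130 KRAB members rose (10.8%; median 0.27) and 1 of 31 others (3.23%; median 0.01), beside 6.80% of all 2646 tested genes of that composition (median 0.12). At 45% GC or more, 0 of 51 KRAB members rose and 1 fell (median 0.09), with 1 higher at an unadjusted p below 0.05 and 0 higher in DESeq2 and limma-voom. Of the 83 others of that composition 1 rose and 2 fell (median -0.15), and of all 8830 tested genes 3.77% rose and 6.84% fell (median -0.04). Without control 1, 36 of the 130 KRAB members under 45% GC rose (27.7%, against 408 of 2727 tested genes of that composition) and 4 of the 51 at or over it (7.84%, against 6.46%). With an offset for GC content in the fit, 7 members rose and 3 fell, beside 4.71% and 4.94% of all genes, and the KRAB median was 0.12. The part of GC content in the difference between the classes was not tested further.

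**Figure D3:**
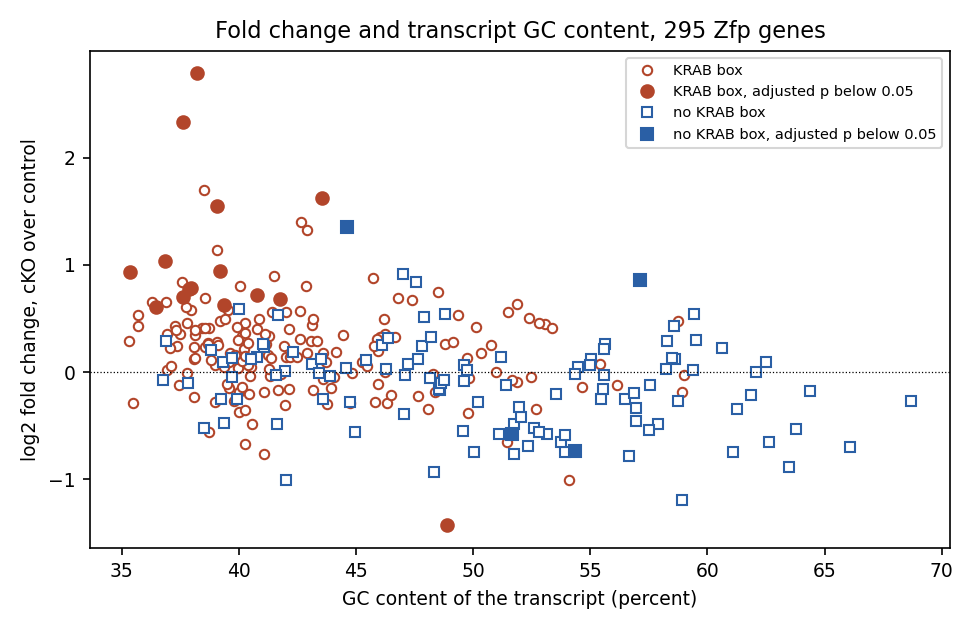
Log2 fold change, cKO over control (y axis), against the GC content of the transcript in percent (x axis) for the 295 members, with filled symbols for an adjusted p below 0.05. All 14 KRAB members that rose were under 45% GC, and median values fell from 0.27 to 0.09 between KRAB members under and over that value.

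By number of fingers, 2 of 44 members with 0 to 4 rose (4.55%) and 2 fell, 1 of 80 with 5 to 9 rose (1.25%), 9 of 104 with 10 to 14 rose (8.65%) and 1 fell, and 4 of 67 with 15 or more rose (5.97%), beside 4.47% and 5.89% of all tested genes higher and lower. The medians of the log2 fold change were -0.02, -0.01, 0.21 and 0.18 in this order. KRAB members had the higher median from 5 fingers on (0.18 against -0.11 for 5 to 9, 0.26 against 0.02 for 10 to 14 and 0.28 against -0.06 for 15 or more), while with 0 to 4 fingers the 7 KRAB members were at -0.03 and the 37 others at -0.01. The box was searched in every coding transcript of a gene and the fingers in 1, so that some of these 7 may have more fingers in another transcript. With control 1 left out, 3, 10, 21 and 16 members of the 4 classes rose (8.42% of all tested genes), and the medians of the first 2 classes turned to 0.02 and 0.13. Of the KRAB members with under 5% of their 50-base words in another gene, 6 of 102 rose (5.88%, median 0.15), near the background of 4.47%, and of those with 5% or more, 8 of 79 rose (10.1%) and 1 fell (median 0.33). Without control 1, 20 of the 102 rose (19.6%), and 20 of the 79 rose (25.3%) and 1 fell. Of all genes tested there 8.42% rose, so the class with under 5% was then above the background. The median coefficient of variation of CPM over the 295 members was 23.7% among controls and 15.4% among cKO libraries. Fingers and fold change had a Spearman rho of 0.112 over KRAB members and -0.101 over the others.

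The largest increases were those of KRAB genes at low levels. Gene positions are those of GENCODE M21 on GRCm38. Zfp760 (ENSMUSG00000067928; chr17:21707741-21725636, plus strand), with 17 fingers, had 1.82, 0.925 and 0.116 CPM in controls 1, 2 and 3 (35, 18 and 3 counts) and 6.16, 5.73 and 7.57 CPM in cKO. The groups did not overlap, and the log2 fold change was 2.79 ± 0.700 (SE, n = 3 per group; edgeR adjusted p = 0.0334). Zfp455 (chr13:67194506-67209298, plus strand) is also known as Rslcan-10, one of the candidate regulators of sex-limited liver genes. It had 1.87, 1.29 and 0.660 CPM in controls and 6.21, 6.93 and 5.95 CPM in cKO (log2 fold change 2.33 ± 0.453, edgeR adjusted p = 0.0131). Both genes passed the rule through their cKO libraries, as given above.

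Zfp456 (Rslcan-13; chr13:67362113-67375810, minus strand) lies in the same cluster as Zfp455, with Zfp595 and Zfp953 (log2 fold changes of 0.46 and 0.02, not called) between them. Its values were 4.82, 3.55 and 3.46 CPM in controls and 11.2, 8.64 and 14.8 CPM in cKO (log2 fold change 1.55 ± 0.301, edgeR adjusted p = 0.0129). Zfp59 (chr7:27838607-27856438, plus strand), a KRAB gene with 16 fingers, had 7.94, 5.86 and 2.56 CPM in controls and 20.5, 16.7 and 13.0 CPM in cKO (log2 fold change 1.63 ± 0.377, edgeR adjusted p = 0.0256). In both genes every cKO library was above every control. Reads can be shared here: 65.3% of the 50-base words of Zfp456 and 52.4% of those of Zfp59 also occur in a transcript of another gene, against 10.3% for Zfp455 and 0.577% for Zfp760.

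Zfp992 and Zfp991 lie near each other on chromosome 4 and encode KRAB proteins of equal length, 573 residues with 11 fingers. Zfp992 (chr4:146449023-146470292, plus strand) had 9.60, 10.8 and 11.9 CPM in controls and 25.2, 23.6 and 17.5 CPM in cKO (log2 fold change 1.03 ± 0.211, edgeR adjusted p = 0.0159). Zfp991 (chr4:147132038-147180579, plus strand) had 9.34, 11.2 and 12.1 CPM in controls and 20.2, 21.2 and 21.1 CPM in cKO (0.94 ± 0.192, edgeR adjusted p = 0.0163). Since 43.7% and 87.0% of their 50-base words are shared with another gene, reads of each may have been split with other genes. Zfp788 (chr7:41633203-41651530, plus strand), with 23 fingers and no shared word, had 16.3, 9.15 and 14.7 CPM against 27.4, 20.2 and 29.6 CPM (0.94 ± 0.250, edgeR adjusted p = 0.0407). Zfp958 (chr8:4613167-4630231, plus strand) had 16.9, 18.6 and 12.4 CPM against 27.5, 22.5 and 32.4 CPM (0.79 ± 0.215, edgeR adjusted p = 0.0446). The other 6 KRAB members that rose, outside the rule for named genes and named after their values were seen, were Zfp820, Zfp874b, Zfp160, Zfp606, Zfp959 and Zfp984, with log2 fold changes of 0.61 to 0.78.

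Among members without a KRAB box, 2 rose. Zfp367 (chr13:64133018-64153202, minus strand), a factor with 2 fingers, was the highest of the called genes by FPKM (38.4 FPKM as the mean of 6 libraries). Its values were 94.6, 45.2 and 86.6 CPM in controls and 171, 150 and 259 CPM in cKO (log2 fold change 1.36 ± 0.275, edgeR adjusted p = 0.0154). Zfp821 (chr8:109705546-109724932, plus strand) had 27.9, 19.4 and 24.5 CPM against 45.1, 32.0 and 53.0 CPM (0.86 ± 0.214, edgeR adjusted p = 0.0329). In both genes the lowest cKO library was cKO 2, and it was above the highest control.

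The 3 members that fell were Zfp82, Zfp395 and Zfp740. Zfp82 (chr7:30054489-30072900, minus strand), a KRAB gene, had 7.0, 10.8 and 12.3 CPM in controls and 2.83, 4.06 and 4.29 CPM in cKO (log2 fold change -1.43 ± 0.323, edgeR adjusted p = 0.0231), and 94.4% of its 50-base words occur in another gene. Zfp395 (chr14:65358389-65398930, plus strand), whose human counterpart binds the promoter of the Huntington disease gene, had 43.1, 49.7 and 45.5 CPM against 25.3, 31.5 and 26.5 CPM (-0.73 ± 0.154, edgeR adjusted p = 0.0174). Zfp740 (chr15:102203249-102215606, plus strand) had 76.3, 86.5 and 95.1 CPM against 55.3, 61.4 and 55.7 CPM (-0.58 ± 0.132, edgeR adjusted p = 0.0234). Neither Zfp395 nor Zfp740 has a KRAB box. In all 19 called members the groups did not overlap, while 15.7% of all tested genes were wholly above the controls and 17.3% wholly below. The calls came from the same 6 libraries, so this adds no separate support. Each of the 19 lost its call without at least 1 library: 18 without cKO 3, 16 without control 2, 15 without cKO 1, 11 without control 3, 7 without cKO 2 and 1, Zfp984, without control 1. The direction was kept in every case, but with groups that do not overlap the loss of 1 library could hardly turn it. Over all tested genes the shares higher and lower also moved, from 4.47% and 5.89% to 0.359% and 0.666% without cKO 3. They were 1.5% and 1.98% without control 2 and 1.53% and 2.45% without cKO 1. Without control 3, cKO 2 and control 1 they were 2.42% and 2.98%, 2.81% and 3.5%, and 8.42% and 8.68%.

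**Figure D4:**
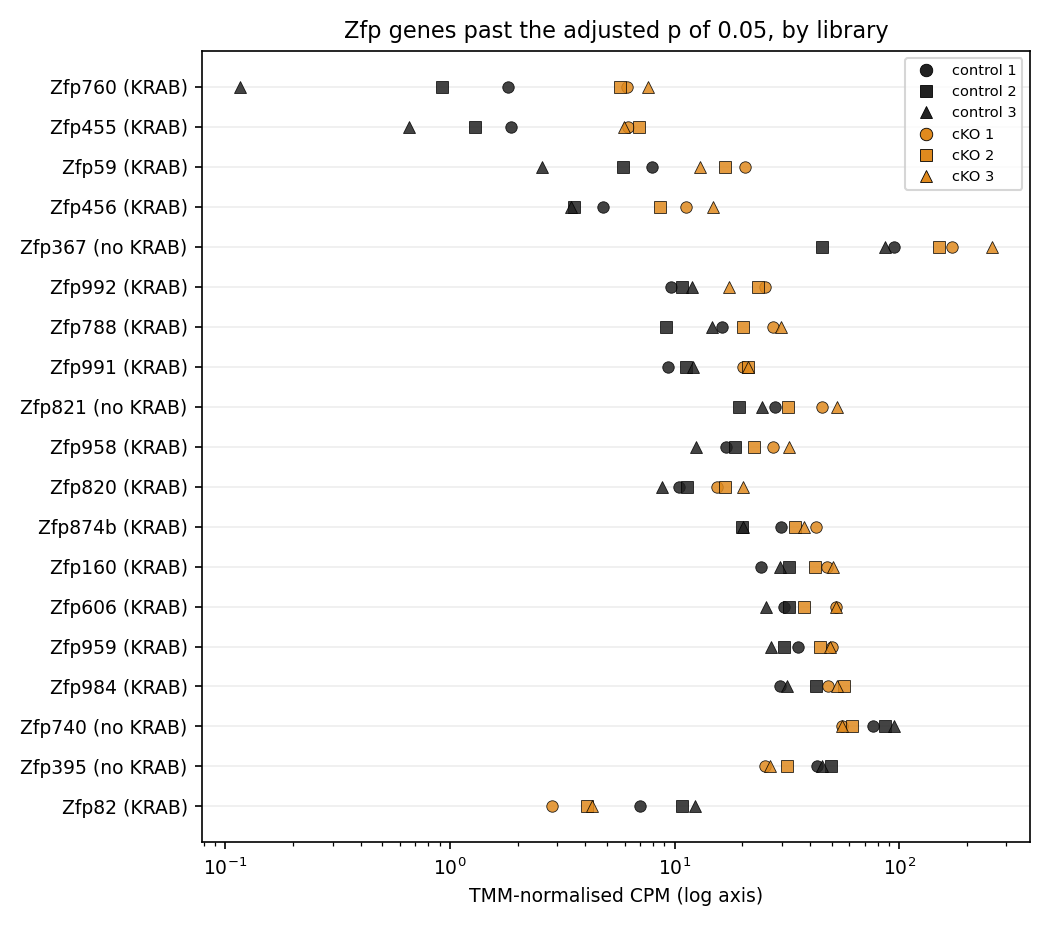
TMM-normalised CPM (log axis) of the 19 members with an edgeR adjusted p below 0.05, with 1 point per library, controls in black and cKO in orange, ordered by log2 fold change. The groups do not overlap in any of the 19, which were called on these same libraries, from Zfp760 (log2 fold change 2.79) to Zfp82 (-1.43).

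Members lay in clusters. With neighbours at most 500 kb apart and at least 4 members, 18 clusters held 143 members, 120 of them with a KRAB box and 8 of the 16 that rose. The cluster on chr13:67038596-67827002 held 19 members, all with a KRAB box, of which 16 had a positive log2 fold change (median 0.29, from -0.56 to 2.33) and 3 rose, Zfp455, Zfp456 and Zfp874b. The cluster on chr17:21008903-23564238 held 21 members, 20 with a KRAB box. Of the 21, 18 were positive (median 0.30) and 3 rose, Zfp160, Zfp760 and Zfp820, beside 4.47% of all tested genes. Zfp455 and Zfp760 met the count rule for members only through their cKO libraries. Their place in these counts, and in those without control 1, was thus not independent of their rise. At a mean of at least 100 counts neither was a member. The next cluster along chromosome 17, chr17:32765496-33631779, held 11 members, 10 of them with a KRAB box. Of these 11, 3 were positive (median -0.12). None of these 11 passed in edgeR, also not at an unadjusted p of 0.05, in DESeq2 or in limma-voom. Without control 1, 7 of 19 rose on chromosome 13 (36.8%), 7 of 21 in the first cluster of chromosome 17 (33.3%) and 0 of 11 in the next, whose median turned to 0.11, beside 8.42% of all tested genes. A cluster of 4 KRAB genes on chr8:71882019-71993792 (Zfp709, Zfp882, Zfp617 and Zfp961) was positive throughout (0.36 to 0.56), and 3 of the 4 were higher at an unadjusted p below 0.05, but 0 after adjustment and 0 in DESeq2 and limma-voom. Without control 1, 2 of these 4 rose, Zfp617 (0.71 ± 0.177, edgeR adjusted p = 0.0244) and Zfp961 (0.80 ± 0.204, edgeR adjusted p = 0.0263).

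Within these clusters the neighbours were uneven. On chromosome 13 the member before Zfp455 in order, Zfp759, had 4.25, 5.24 and 9.98 CPM in controls and 3.38, 0.729 and 9.09 CPM in cKO, groups that overlapped (log2 fold change -0.56 ± 0.684, edgeR adjusted p = 0.647). Zfp874a, beside Zfp874b, had 44.2, 24.8 and 40.4 CPM against 59.5, 45.9 and 46.7 CPM, groups that did not overlap, but it did not pass (0.48 ± 0.216, edgeR adjusted p = 0.183). Zfp87, the highest of the cluster in CPM, had 103, 67.2 and 56.4 CPM against 83.3, 62.1 and 78.6 CPM (-0.01 ± 0.212, edgeR adjusted p = 0.979). There and in Zfp748, at 74.0, 46.6 and 35.6 CPM against 69.9, 70.2 and 56.7 CPM, control 1 was the highest of the 6 libraries. Without control 1, Zfp748 rose (0.67 ± 0.165, edgeR adjusted p = 0.0233) and Zfp87, whose sign turned, was at 0.27 ± 0.154 (edgeR adjusted p = 0.26). On chromosome 17, Zfp947 had 2.07, 1.49 and 0.738 CPM against 4.25, 4.11 and 5.54 CPM, groups that did not overlap (1.70 ± 0.492, edgeR adjusted p = 0.0535), and Zfp51, the highest there in CPM, had 206, 79.0 and 85.5 CPM against 126, 145 and 165 CPM (0.24 ± 0.312, edgeR adjusted p = 0.673). Both passed without control 1, Zfp51 at 0.82 ± 0.132 (edgeR adjusted p = 0.0047) and Zfp947 at 2.06 ± 0.533 (edgeR adjusted p = 0.0287). These members were picked after their values were seen.

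Members past a log2 fold change of 1 in size but not past the edgeR test numbered 7. Zfp248, Zfp619, Zfp947 and Zfp993 were above 1 and Zfp2, Zfp524 and Zfp647 below -1, all at low levels. DESeq2 called Zfp947 and Zfp993 higher and Zfp524 lower, limma-voom Zfp947 higher and Zfp524 lower, and edgeR without control 1 Zfp619 and Zfp947 higher and Zfp524 lower. Zfp619, with 33 fingers, had 5.55, 0.668 and 1.79 CPM in controls and 3.65, 10.3 and 7.11 CPM in cKO, groups that overlapped through control 1 (log2 fold change 1.40 ± 0.659, edgeR adjusted p = 0.199; without control 1, 2.49 ± 0.599, edgeR adjusted p = 0.0219). Zfp647, a KRAB gene, had 5.86, 9.0 and 8.74 CPM against 5.16, 1.82 and 4.75 CPM, groups that did not overlap (-1.004 ± 0.409, edgeR adjusted p = 0.142).

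The cluster with the lowest median held no KRAB gene. It lies on chr7:4915217-5053723 and holds Zfp628, Zfp579, Zfp524, Zfp865, Zfp784 and Zfp580, all with a negative log2 fold change (median -0.63, from -1.19 to -0.46). The cKO libraries were wholly below the controls in 5 of the 6, beside 17.3% of all tested genes. Zfp524 had 6.43, 10.1 and 10.2 CPM in controls and 2.88, 5.68 and 3.19 CPM in cKO (log2 fold change -1.19 ± 0.358, edgeR adjusted p = 0.0594). Zfp628 had 12.9, 7.35 and 11.5 CPM against 5.11, 5.78 and 6.28 CPM (-0.88 ± 0.285, edgeR adjusted p = 0.0734). None of the 6 passed in edgeR, 2 were lower at an unadjusted p below 0.05, and DESeq2 and limma-voom each called 1 lower, Zfp524. In edgeR Zfp524 also passed without control 1 (-1.38 ± 0.359, adjusted p = 0.0294) and without cKO 2 (-1.56 ± 0.357, adjusted p = 0.0381). The 6 were singled out after their values were seen, and their transcripts are 52.81% to 66.09% GC.

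**Figure D5:**
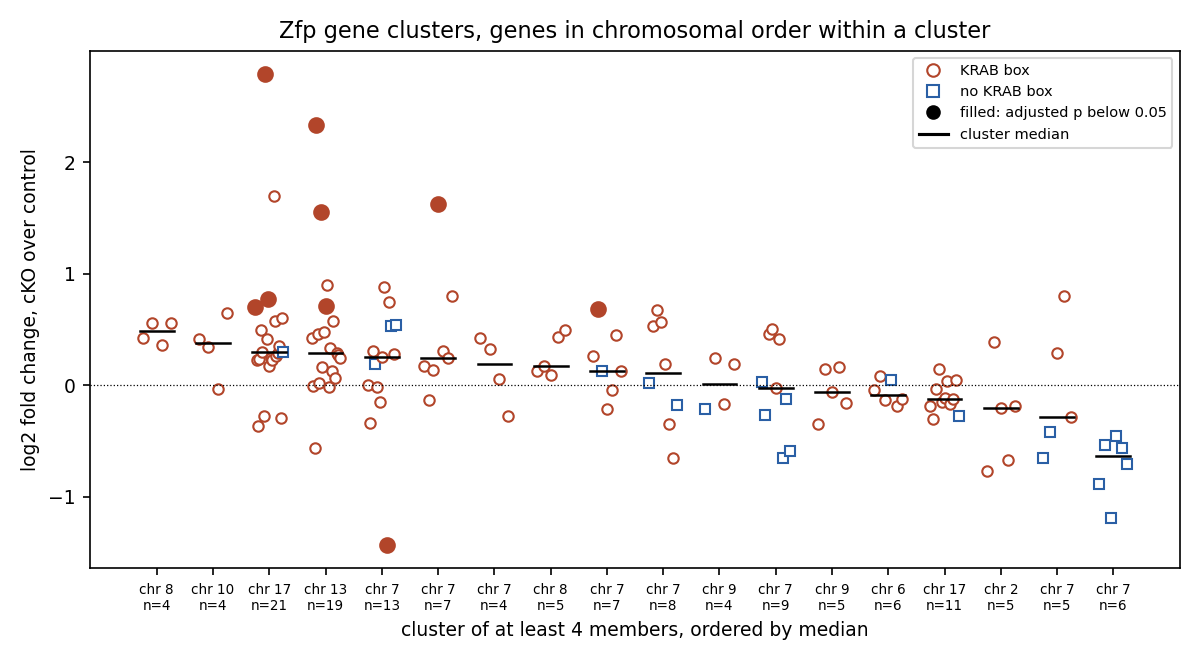
Log2 fold change, cKO over control, of the members of 18 clusters (x axis, by chromosome and number of members), ordered by median (bars), with filled symbols for an adjusted p below 0.05. Medians run from 0.49 for 4 KRAB genes of chromosome 8 to -0.63 for 6 genes without a KRAB box on chromosome 7.

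Promoter windows of 300 bases, from 250 before to 50 after the annotated start, were given by RefSeq (GRCm38.p6) for 249 of the 295 members. The promoters of the 3 called genes of the chromosome 13 cluster are shown because they share a motif, ACTACA, any 2 bases and TCCCA or the reverse complement of this, the core letters of the site of ZNF143, an activator of promoters. This motif was chosen after the promoters of called members had been read. Capitals mark the motif, which is on the opposite strand here.
Zfp455 (chr13:67194256-67194555, plus strand): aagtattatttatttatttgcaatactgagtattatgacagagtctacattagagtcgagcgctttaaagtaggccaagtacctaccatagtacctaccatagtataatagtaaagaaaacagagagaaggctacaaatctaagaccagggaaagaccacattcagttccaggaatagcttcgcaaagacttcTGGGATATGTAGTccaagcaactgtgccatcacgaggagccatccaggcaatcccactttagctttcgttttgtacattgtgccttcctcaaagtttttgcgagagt
Zfp456 (chr13:67375714-67376013, minus strand): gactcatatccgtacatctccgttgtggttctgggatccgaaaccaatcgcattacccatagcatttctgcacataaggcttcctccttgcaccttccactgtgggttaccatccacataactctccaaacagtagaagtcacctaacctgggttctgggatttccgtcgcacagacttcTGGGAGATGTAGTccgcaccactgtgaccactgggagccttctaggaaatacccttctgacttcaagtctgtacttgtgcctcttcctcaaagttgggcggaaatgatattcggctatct
Zfp874b (chr13:67484204-67484503, minus strand): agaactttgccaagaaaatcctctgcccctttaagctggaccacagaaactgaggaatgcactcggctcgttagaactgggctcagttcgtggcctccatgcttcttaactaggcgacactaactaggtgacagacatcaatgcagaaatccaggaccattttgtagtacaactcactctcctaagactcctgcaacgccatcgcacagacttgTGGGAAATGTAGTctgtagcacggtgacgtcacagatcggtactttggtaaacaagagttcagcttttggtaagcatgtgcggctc
The motif was in 37 of 158 KRAB members with a window (23.4%), in 8 of 91 others (8.79%), in 4.33% of 9160 tested genes and in 1.69% of 27025 genes with a window. It was in 4 of 14 members that rose, the 3 above and Zfp606. Within the KRAB members the median log2 fold change was 0.29 with the motif and 0.24 without it. A match is a description and does not show binding. Zfp143 itself, the mouse gene for this factor, had 75.4, 94.0 and 73.7 CPM in controls and 66.0, 77.5 and 56.9 CPM in cKO, groups that overlapped (log2 fold change -0.28 ± 0.156, edgeR adjusted p = 0.276).

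Of the other motifs searched, TTTCCCGC, TTTGGCGC and TTTCGCGC are forms of the E2F site, found at promoters of cell cycle genes. TTTCCCGC was in 6 of 249 members (2.41%) and in 2.48% of tested genes. Members with it had a median log2 fold change of -0.03, against 0.12 without it. For TTTGGCGC, also in 6 members, the medians were -0.20 and 0.12. Over all tested genes those for TTTCCCGC were 0.08 and -0.01. Of the 14 members that rose and had a window, TTTCCCGC was in 2 (14.3%), Zfp367 and Zfp760, the most abundant and the most changed of the 16. Zfp760 met the count rule only through its cKO libraries. The promoters of both are shown with E2F forms in capitals.
Zfp367 (chr13:64153150-64153449, minus strand): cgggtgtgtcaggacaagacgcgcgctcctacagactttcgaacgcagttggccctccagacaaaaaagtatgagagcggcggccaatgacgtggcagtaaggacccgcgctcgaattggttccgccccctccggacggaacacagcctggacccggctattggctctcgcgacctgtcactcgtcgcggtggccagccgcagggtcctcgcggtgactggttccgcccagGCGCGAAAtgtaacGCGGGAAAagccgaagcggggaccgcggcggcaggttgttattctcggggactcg
Zfp760 (chr17:21707491-21707790, plus strand): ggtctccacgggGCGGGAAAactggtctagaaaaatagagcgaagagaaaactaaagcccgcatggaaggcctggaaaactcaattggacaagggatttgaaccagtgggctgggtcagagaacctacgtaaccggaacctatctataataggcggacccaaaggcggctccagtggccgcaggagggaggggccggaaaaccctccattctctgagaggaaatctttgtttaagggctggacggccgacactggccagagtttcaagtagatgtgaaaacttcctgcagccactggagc
Zfp367 also holds TTTCGCGC in the window shown and TTTGGCGC in its other window. CCAAT was in 57.0% of KRAB members, against 43.9% of tested genes, and GGGCGG in 38.6% of KRAB members, 65.9% of the others and 68.8% of tested genes. All motifs were searched on both strands.

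Members with a known role in lymphocytes were described by a list of 9, of which 7 were members and 0 were called, 1 being lower at an unadjusted p below 0.05 and 0 called by DESeq2 or limma-voom. Zfp609, which acts in thymocytes on expression of the Rag genes, had 10.8, 13.3 and 9.28 CPM in controls and 7.62, 5.83 and 7.16 CPM in cKO, groups that did not overlap (log2 fold change -0.69 ± 0.254, edgeR adjusted p = 0.107). Zfp335, needed for maturation of T cells, had 66.3, 43.2 and 48.1 CPM against 45.2, 66.8 and 48.3 CPM (0.02 ± 0.202, edgeR adjusted p = 0.958). Zfp318, which controls the choice of IgD transcripts in B cells, had a log2 fold change of -0.56 ± 0.396. Zfp148, Zfp281, Zfp91 and Zfp131 ran from -0.25 to 0.08.

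Of 8 listed genes of imprinting and of repeat or retrovirus silencing, 5 were members. Zfp445, which maintains imprints, had 115, 87.2 and 83.5 CPM in controls and 132, 118 and 99.6 CPM in cKO (log2 fold change 0.29 ± 0.159, edgeR adjusted p = 0.259), and without control 1 its adjusted p was 0.0465. Zfp809, which silences retroviruses, was at 0.24 ± 0.188, Zfp932 at 0.42 ± 0.185, Zfp568, a repressor of a placental Igf2 transcript, at 0.25 ± 0.242 and Zfp708 at -0.01 ± 0.317. None passed in edgeR, DESeq2 or limma-voom, and 1 was higher at an unadjusted p below 0.05.

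The 10 members of a list for promoters and chromatin complexes had a median of -0.17, with 2 positive. Zfp217, a co-repressor subunit, had 12.2, 18.5 and 13.1 CPM in controls and 11.8, 8.38 and 5.59 CPM in cKO (log2 fold change -0.76 ± 0.302, edgeR adjusted p = 0.132). Zfp592, a partner of Zfp687 in a chromatin reader complex, had 103, 87.3 and 77.5 CPM against 71.2, 70.4 and 72.5 CPM (-0.32 ± 0.135, edgeR adjusted p = 0.152). None of the 10 passed in edgeR, DESeq2 or limma-voom, and 3 were lower at an unadjusted p below 0.05. Of 12 members acting on RNA, ribosomes or DNA repair, none passed in any of the 3 tools or at an unadjusted p of 0.05, and the median was 0.08. Zfp598, a ubiquitin ligase for collided ribosomes, had 6.28, 4.47 and 5.82 CPM in controls and 6.71, 10.5 and 6.88 CPM in cKO (0.54 ± 0.304, edgeR adjusted p = 0.282). Zfp451, a SUMO ligase, was at 0.23 ± 0.175, with an adjusted p of 0.0176 without control 1.

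The machinery through which KRAB proteins act was described by a list of 24 genes, of which 23 were tested. Of these, 1 rose and 1 fell (4.35% each, median log2 fold change 0.08), beside 4.47% and 5.89% of all tested genes. Without control 1, 1 rose (4.35%) and 3 fell (13.0%), beside 8.42% and 8.68%. Cbx3, the HP1 gamma gene, rose from 450 ± 53.2 to 627 ± 44.7 CPM (SD, n = 3; log2 fold change 0.48 ± 0.121, edgeR adjusted p = 0.0353). Trim24 fell from 29.3 ± 4.71 to 16.0 ± 2.60 CPM (-0.87 ± 0.198, edgeR adjusted p = 0.0238). Trim28 was at 336 ± 43.0 and 429 ± 42.1 CPM (0.35 ± 0.129, edgeR adjusted p = 0.107) and Setdb1 at 90.5 ± 6.61 and 80.5 ± 13.6 CPM (-0.17 ± 0.148, edgeR adjusted p = 0.497). Of 4 genes of the HUSH complex, which silences repeats, 0 were called in edgeR, DESeq2 or limma-voom, with 1 higher at an unadjusted p below 0.05 and 1 called without control 1. Of 9 further genes of histone H3 lysine 9 methylation, 1 rose (11.1%), the methyltransferase Suv39h2 (0.69 ± 0.193, edgeR adjusted p = 0.0482). Without control 1, 3 of these 9 rose (33.3%, beside 8.42% of all tested genes).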

How the data were processed

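RNA from sorted DP thymocytes was pre-amplified and sequenced on an Illumina HiSeq2500, with 3 control and 3 cKO libraries. The kits in the methods are Discover-sc WTA (V2) for pre-amplification and TruePrep DNA Library Prep (V2) for libraries, and the labels give a SMARTER kit. The submitters' processing notes name fastp 0.18.0, Bowtie2 2.2.8, HISAT2, StringTie and RSEM. The build, the annotation and the strand setting were not given in the sources used. The deposited table holds the reads the authors counted per gene and library, as whole counts without normalization, and the authors' FPKM, scaled to gene length and library size. It also holds group mean FPKM, the authors' log2 ratio, p-value and FDR, which were not used, and KEGG and GO terms.

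Counts were tested in R 4.3.3 with edgeR 4.0.16 (TMM, filterByExpr with a minimum count of 10 and total of 15, quasi-likelihood test on genotype, Benjamini-Hochberg adjustment), which left 11488 of 15349 genes with a count. A call is an adjusted p below 0.05. One count was worth 0.03809 to 0.05273 CPM. Between libraries of a group the chi-square of the counts was 19.1 to 64.9 per degree of freedom, so none was a duplicate. FPKM served only for levels between genes.

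Members were matched by Ensembl identifier to GENCODE M21 on GRCm38, whose coding transcripts were translated in place of the RefSeq proteins that had been intended. The KRAB box (a profile from 209 sequence windows, pyhmmer 0.12.3, E value 0.0001) was searched in every coding transcript of a gene. The fingers were counted in 1 chosen transcript, so that box and fingers can come from different proteins of a gene. Words of 50 bases shared with another annotated gene, overlapping genes included, were counted per transcript. Named genes are the members past the fold threshold of 1, the 10 with the largest rise and fall among those called, the 5 highest by FPKM, the role lists, the 3 on either side of the count threshold, called genes of the co-repressor and HUSH lists with Trim28 and Setdb1, and Paxbp1. The members and lists were chosen with earlier results of these data known, and the KRAB split, the clusters, the GC split and the motifs after values were seen.

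Alternatives were DESeq2 1.42.0, limma-voom (limma 3.58.1), RLE factors, total counts alone, no filter, a mean of at least 5 CPM, GC content and length offsets, a replicate block, leaving out each library, and count thresholds of 20 and 100. On simulated counts for this comparison with 200 of 11296 genes changed, 167 (83.5%) were called beside 10 unchanged genes. The changes were set at an absolute log2 fold change of 1 or more, in genes with a mean of at least 50 counts. No library was shifted, so the share called does not apply to smaller changes or to a control that stands apart.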

Additional observations from a re-analysis of the deposited data

How the results depend on the processing

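The 16 members higher and 3 lower became 25 and 7 in DESeq2, 20 and 6 in limma-voom, 19 and 6 with no filter, 17 and 5 of 254 at a mean of at least 5 CPM, and 7 and 3 with the GC content offset, which left 5 KRAB members higher. Past the fold threshold as well, where 1 had been lower, 2 were lower in DESeq2, with no filter and at 5 CPM, and 3 in limma-voom. RLE factors, total counts alone, the length offset and the count thresholds of 20 and 100 left the counts of higher members between 14 and 21. All 16 higher and 3 lower members were among the calls of DESeq2 and limma-voom. Leaving out 1 library gave 1 to 50 members higher and 0 to 7 lower, 1 to 13 and 0 to 3 past the fold threshold as well, and 1 to 40 KRAB members higher; the most came without control 1 and the fewest without cKO 3, and without control 2, control 3 and cKO 1 the higher members were 3, 7 and 4 and the lower 0, 1 and 0. The cause was not tested beyond the loss of a library. Over all tested genes these fits called 0.359% to 8.42% higher and 0.666% to 8.68% lower. The median log2 fold change of KRAB members was positive in every setting (0.12 to 0.39), and no named gene that was called changed sign. The groups of the called genes did not overlap, so that the loss of 1 library could hardly have turned a sign. The replicate numbers were not shown to pair the libraries (correlations of 0.0451, 0.0377 and -0.03 between same-numbered libraries), and with a replicate block 15 members were higher and 5 lower, with 2 lower past the fold threshold. Of the 19 called members, 11 share at least 5% of their 50-base words with another gene, as do 114 of all 295, and reads of such genes may have been split by the counting.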

Other observations

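KRAB genes that fell outside the Zfp rule were looked at after values had been seen. Of 66 tested KRAB genes with another name, 44 had a positive log2 fold change (median 0.16), 1 rose, A630089N07Rik (1.45), and 0 fell in edgeR, beside 4.47% and 5.89% of all tested genes. At an unadjusted p below 0.05, 7 were higher and 3 lower. DESeq2 called 4 higher, limma-voom 2 and edgeR without control 1 6 (9.09%, beside 8.42% of all tested genes). None of these 3 called any lower. The 27 tested KRAB Zfp genes under the threshold of 50 counts had a median of 0.25, with 0 called in edgeR, DESeq2 or limma-voom and 1 in each direction at an unadjusted p below 0.05.

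Other zinc finger genes were described by 3 lists, with no test against the Zfp genes. Of 24 tested C2H2 factors known from thymocytes, 1 rose and 5 fell (2 and 6 without control 1). Ikzf2 (Helios) rose from 25.6 ± 4.85 to 45.7 ± 2.25 CPM (SD, n = 3; log2 fold change 0.84 ± 0.170 SE, edgeR adjusted p = 0.0157). Bcl11b, required for T cell commitment, fell from 559 ± 70.8 to 311 ± 27.6 CPM (-0.84 ± 0.127, edgeR adjusted p = 0.00613), and Ctcf, the insulator protein, from 161 ± 27.1 to 108 ± 8.02 CPM (-0.58 ± 0.143, edgeR adjusted p = 0.0319). Ikzf1, Klf6 and Gfi1 fell by 0.40, 0.56 and 0.49 on the log2 scale. Of 35 tested ZBTB genes, 1 fell (2.86%), Zbtb25 (-0.69), and 0 rose (4 at an unadjusted p below 0.05, 1 in DESeq2 and 0 in limma-voom). Without control 1, 4 of the 35 rose (11.4%, beside 8.42% of all tested genes) and 0 fell. Of 18 tested Zscan and Zkscan genes none was called in edgeR, with a median of -0.25, 1 in each direction at an unadjusted p below 0.05, and 1 higher in DESeq2 and 0 in limma-voom.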
